A study of Mus musculus with 3 samples.

Results

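The genes of the amino acid and unfolded protein response were followed in 3 RNA-seq libraries of cultured mouse cortical neurons. They form a list of 37 genes, drawn up from what is known of the pathway but with earlier results of these data known. All 37 were found among the 54232 genes in the count files. The list has 2 arms. An ATF4 arm of 30 genes holds stress transcription factors, stress effectors, amino acid transporters, amino acid enzymes and aminoacyl-tRNA synthetases, and a chaperone arm of 7 genes holds folding and degradation factors of the endoplasmic reticulum. Of the 37, 36 had at least 1 CPM (counts per 1000000 counts of the library) in at least 1 library and were compared with the 13884 genes that passed the same filter. Nupr1, a small stress-response chromatin protein, did not pass.

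Cells lower general protein synthesis and make more of the transcription factor ATF4 when a kinase phosphorylates the initiation factor eIF2alpha, which happens on amino acid shortage through GCN2 and on endoplasmic reticulum stress through PERK. ATF4 pairs with C/EBP proteins on composite DNA elements and switches on amino acid uptake, amino acid synthesis and tRNA charging. The other branches of the unfolded protein response, ATF6 and IRE1 with XBP1, act mainly on chaperones and degradation factors. Because ATF4 is controlled largely at translation, a level of Atf4 mRNA is not a level of the protein.

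The neurons were wildtype and are labelled with the mouse stock CD1 and the tissue cortical neuron. The IKVAV PA library came from neurons treated with a peptide amphiphile, a peptide that assembles into fibres and here carries the laminin sequence named IKVAV. In the IKVAV PA + PEDOT-S library a further component was present, called PS2 in the title and PEDOT-S_OH in the library name. PEDOT-S is a conducting polymer, and the names are assumed to mean 1 material. The control carries the label PDL, which the labels do not spell out, and the treatment field reads Peptide amphiphile for all 3 libraries, the control included. Age, days in culture and the number of animals behind a library are not given in these sources. Each group has 1 library, all labelled repeat 3, so nothing measures the spread between cultures and no p-value is given. A difference below is a difference between 2 libraries.

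The libraries held 124425958 counts (IKVAV PA), 79057998 (IKVAV PA + PEDOT-S) and 78993105 (PDL control). Levels are CPM scaled by trimmed-mean factors between 0.990 and 1.008. Each ratio carries a 95% counting interval (exact Clopper-Pearson), which covers counting error only. A gene is called higher or lower where the bound nearest to no difference lies beyond 1.5-fold, and "the interval lay above" or "below" means only that it excluded no difference. That weaker rule was chosen after the data were seen, and at these depths it takes in from 28% to 31.4% of all genes in a direction. The 10 neuron markers, led by Rbfox3, Map2 and Tubb3, summed to 8102, 7875 and 8003 CPM, so markers of the labelled cell type were present at similar levels. Mitochondrial genes took 1.83%, 1.55% and 1.92% of the counts, and the part of this difference in the results was not tested.

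The promoters of the listed genes show which of them carry the sequence elements of each arm. RefSeq start-site windows of 300 bases (250 before to 50 after the start, build GRCm38.p6) were matched for 33 of the 37 genes, and Slc7a3, Slc7a5, Wars and Nars have no entry. TGATGNAA, the C/EBP-ATF response element, was searched on both strands and was present in 9 of 26 matched ATF4-arm genes (34.6%), namely Atf3, Trib3, Nupr1, Chac1, Slc7a11, Asns, Pycr1, Aars and Gars. It was present in 1 of 7 chaperone-arm genes, Herpud1, and in 1219 of 27025 genes of the whole table (4.51%). CCAAT, 9 bases and CCACG, the endoplasmic reticulum stress element, was present in none of the 26 and in 2 of the 7, Hspa5 and Hsp90b1, against 37 of 27025 genes (0.137%). Its variant form, ATTGG, 1 base and CCACG, was present in Herpud1 alone of the listed genes and in 12 of 27025 (0.0444%). The XBP1 core TGACGTGG was in no listed window and in 193 of 27025 (0.714%). A match describes letters and is not a bound site, and a window without a match says nothing of the factor. The windows below each show 120 bases, 5′ to 3′ along the gene's strand, with matched elements in capitals. Asns and Chac1 hold 1 C/EBP-ATF element and Slc7a11 holds 2, Herpud1 holds an element of each arm, and Hspa5 holds the stress element. Phgdh and Cebpb are shown because they passed the 1.5-fold rule, and their windows hold no match. The other 5 were picked after the matches were seen.
Asns (asparagine synthetase, chr6:7693180-7693299, minus strand): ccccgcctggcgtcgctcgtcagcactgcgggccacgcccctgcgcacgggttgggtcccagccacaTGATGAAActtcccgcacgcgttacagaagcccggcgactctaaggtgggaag
Chac1 (glutathione-degrading enzyme, chr2:119351012-119351131, plus strand): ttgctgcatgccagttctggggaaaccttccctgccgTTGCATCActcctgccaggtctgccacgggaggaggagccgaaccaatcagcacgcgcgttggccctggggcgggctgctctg
Slc7a11 (cystine-glutamate exchanger, chr3:50443594-50443713, minus strand): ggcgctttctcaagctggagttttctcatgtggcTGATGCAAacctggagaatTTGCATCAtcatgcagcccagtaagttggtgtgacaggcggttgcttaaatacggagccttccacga
Herpud1 (degradation factor of the endoplasmic reticulum, chr8:94386299-94386418, plus strand): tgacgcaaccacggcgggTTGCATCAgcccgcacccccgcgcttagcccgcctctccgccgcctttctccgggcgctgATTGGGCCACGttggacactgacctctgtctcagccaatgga
Hspa5 (the chaperone BiP, chr2:34771990-34772109, plus strand): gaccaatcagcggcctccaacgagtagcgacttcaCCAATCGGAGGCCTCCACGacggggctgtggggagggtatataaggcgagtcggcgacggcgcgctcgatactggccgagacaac
Phgdh (first enzyme of serine synthesis, chr3:98339970-98340089, minus strand): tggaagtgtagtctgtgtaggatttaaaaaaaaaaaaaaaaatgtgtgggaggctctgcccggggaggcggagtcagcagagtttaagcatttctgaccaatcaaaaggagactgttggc
Cebpb (transcription factor and ATF4 partner, chr2:167688795-167688914, plus strand): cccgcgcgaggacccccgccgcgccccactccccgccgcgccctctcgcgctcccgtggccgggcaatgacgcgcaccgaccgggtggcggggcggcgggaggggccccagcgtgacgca

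IKVAV PA had the lowest level in 26 of the 30 ATF4-arm genes, and IKVAV PA + PEDOT-S had the highest in 24 of 30. Among all 13884 genes compared, IKVAV PA was lowest in 33.4% and IKVAV PA + PEDOT-S highest in 36.5%. The chaperone arm was ordered otherwise, with PDL control highest in 5 of 7 genes and IKVAV PA lowest in 6 of 7. Summed over the ATF4 arm, levels were 2492 CPM in IKVAV PA, 3059 in IKVAV PA + PEDOT-S and 2672 in PDL control. Summed over the chaperone arm they were 745, 772 and 892 CPM. The PEDOT-S library was thus the highest of the 3 for the ATF4 arm, while for the chaperone arm it lay near IKVAV PA and below the control.

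**Figure D1:**
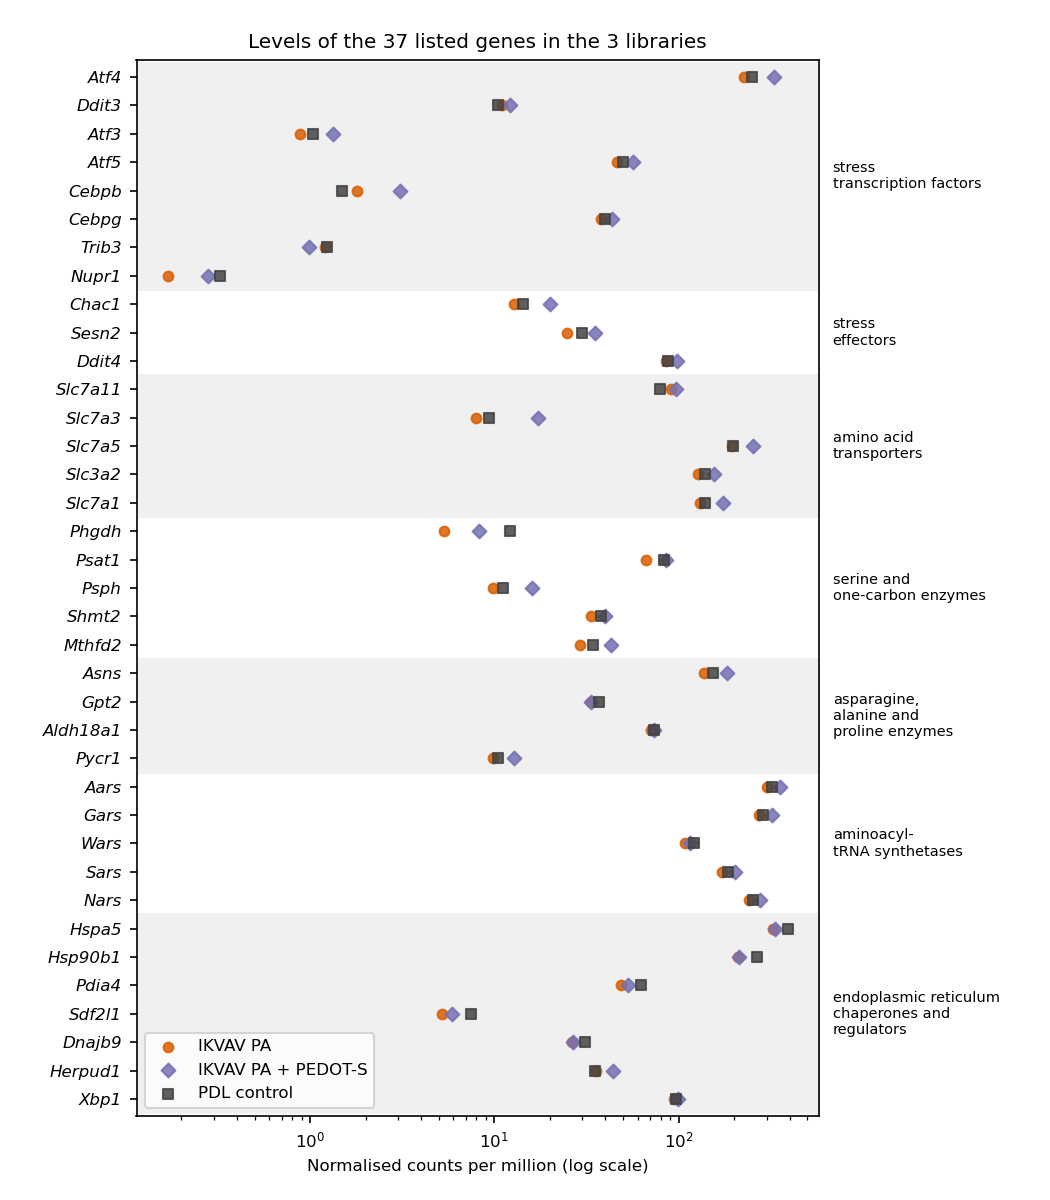
Normalised CPM (horizontal log axis) of the 37 listed genes, 1 symbol per library, in shaded blocks by role. IKVAV PA (circles) is leftmost in 26 of 30 ATF4-arm genes and PEDOT-S (diamonds) rightmost in 24, while PDL control (squares) is rightmost in 5 of 7 chaperone-arm genes.

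Between the scaffolds, the component added to IKVAV PA went with higher counts of most ATF4-arm genes. The median log2 ratio of IKVAV PA + PEDOT-S to IKVAV PA was 0.29 over the 29 ATF4-arm genes that passed the filter, 0.08 over the 7 chaperone-arm genes and 0.01 over all genes compared. The ratio was positive for 28 of the 29, all but Trib3, and its interval lay above no difference for 27 of the 29 and 5 of the 7. Of all genes, 31.4% lay above and 28.5% below. Only Slc7a3 was called higher at 1.5-fold and no member was called lower, against 0.331% and 2.02% of all genes. At a looser bound, a ratio beyond 5 to 4, 11 of 36 members were called higher and 0 lower, where 1.54% and 4.83% of all genes were. Those 11 were Atf4, Cebpb, Chac1, Sesn2, Slc7a3, Slc7a5, Slc7a1, Phgdh, Psph, Mthfd2 and Asns, so the chaperone arm gave none.

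Against the PDL control the PEDOT-S library had higher ATF4-arm counts and lower chaperone counts. Medians of the log2 ratio were 0.19 for the ATF4 arm and -0.23 for the chaperone arm, against -0.00 for all genes, a gap of 0.42 between the arms. Cebpb and Slc7a3 were called higher and no member lower, where 0.447% and 3.76% of all genes were. By the weaker rule 21 ATF4-arm genes lay above and 3 below, and 1 chaperone-arm gene lay above and 5 below, with 28.6% and 28.5% of all genes above and below.

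Against the PDL control the IKVAV PA library was lower in both arms. Medians were -0.11 for the ATF4 arm and -0.27 for the chaperone arm, against 0.00 for all genes, and 26 of 29 and 6 of 7 ratios were negative. Phgdh alone was called lower and no member was called higher, where 3.42% and 0.54% of all genes were. By the weaker rule 1 ATF4-arm gene, Slc7a11, lay above and 21 lay below, and 5 chaperone-arm genes lay below, with 28% and 28.9% of all genes above and below. These 3 comparisons share libraries in pairs, so their values are not independent of each other.

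**Figure D2:**
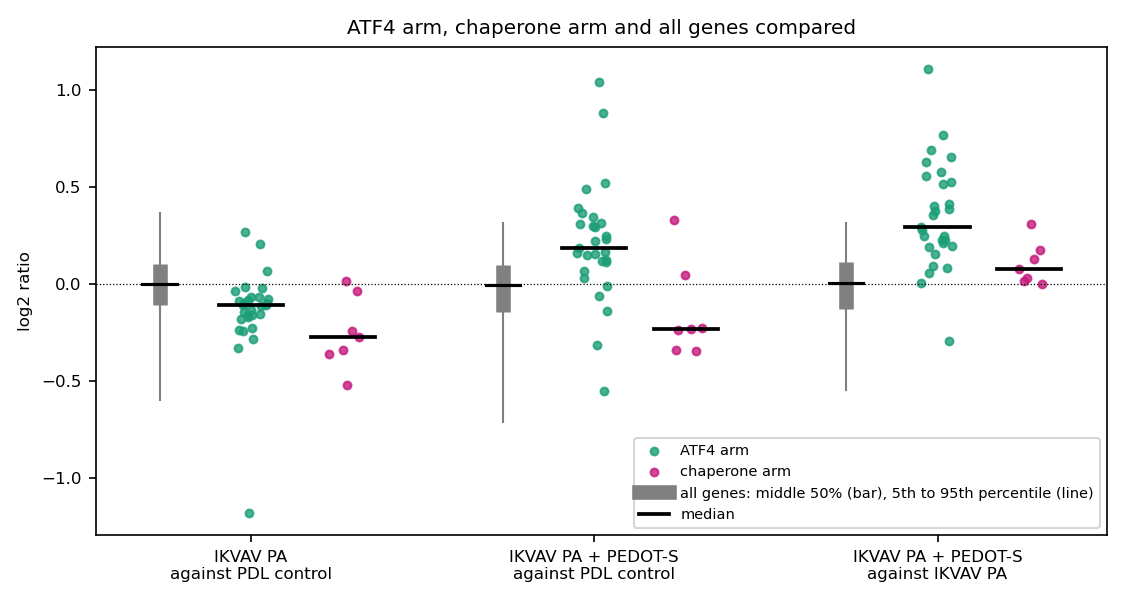
Log2 ratios of the ATF4-arm genes (green points) and chaperone-arm genes (magenta points) in the 3 comparisons, with black lines at the medians and, in grey, the middle 50% and the 5th to 95th percentile of all genes compared. The ATF4 arm sits above the chaperone arm in each comparison, by 0.16, 0.42 and 0.21 between medians.

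Among the stress transcription factors, Atf4 was the most abundant per kilobase of exon, with 96.4 CPM per kilobase in IKVAV PA, 139 in IKVAV PA + PEDOT-S and 106 in PDL control. Its scaled levels were 227, 327 and 249.6 CPM, highest in the PEDOT-S library and lowest in IKVAV PA. The log2 ratio was 0.53 between the scaffolds (interval 0.50 to 0.55) and 0.39 against PDL (0.36 to 0.42), and IKVAV PA lay at -0.14 against PDL (-0.16 to -0.11). None of these reached the 1.5-fold rule, although counting error was small at 19884 to 28329 counts a library.

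Cebpb, a C/EBP partner of ATF4 (ENSMUSG00000056501, chromosome 2 from 167688915 to 167690418, plus strand), was at 1.81, 3.09 and 1.49 CPM in IKVAV PA, IKVAV PA + PEDOT-S and PDL control. The PEDOT-S library stood above the other two, at 2.07-fold the PDL control (log2 1.04, 0.73 to 1.38), which was called higher, and at 1.71-fold IKVAV PA (log2 0.77, 0.51 to 1.04), which was not. These levels rest on 119 to 242 counts, and 20.7% of the exonic bases of Cebpb are shared with another gene, so they are uncertain. Cebpg, a related partner, was at 37.9, 43.4 and 40.1 CPM, a log2 ratio of 0.20 between the scaffolds (0.13 to 0.26). Atf5, another factor translated under stress, was at 46.4, 56.9 and 49.97 CPM, a ratio of 0.29 (0.24 to 0.35). Both had the order of Atf4 at smaller size.

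Ddit3, Trib3, Atf3 and Nupr1, factors that follow ATF4 when stress is strong or prolonged, were at 12.2 CPM or less in every library. Ddit3, which encodes CHOP, was at 11.0, 12.2 and 10.5 CPM, or 6.41, 7.14 and 6.11 CPM per kilobase, far below Atf4 on that scale. Its log2 ratio was 0.16 between the scaffolds (0.03 to 0.28) and 0.22 against PDL (0.09 to 0.36), and 10.9% of its exonic bases are shared with another gene. Trib3, a pseudokinase induced by CHOP, was at 1.21, 0.984 and 1.23 CPM and was the only passed ATF4-arm gene with a negative ratio between the scaffolds (-0.29, -0.72 to 0.10), an interval that includes no difference. Atf3, an early stress factor, was at 0.883, 1.33 and 1.04 CPM, a ratio of 0.58 (0.19 to 0.99), and passed the filter through 2 libraries. Nupr1 was at 0.168, 0.281 and 0.326 CPM, from 21, 22 and 26 counts. Atf3, Trib3 and Nupr1 had the widest intervals of the 37 genes.

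The 3 stress effectors were all highest in the PEDOT-S library and lowest in IKVAV PA. Chac1, an enzyme that breaks down glutathione, was at 12.8, 20.1 and 14.3 CPM, 1.57-fold between the scaffolds (log2 0.65, 0.55 to 0.75), and its interval began below 1.5-fold. Sesn2, which restrains mTORC1 when leucine is short, was at 24.6, 35.3 and 30.0 CPM, a ratio of 0.52 between the scaffolds (0.44 to 0.59) and of -0.28 for IKVAV PA against PDL (-0.36 to -0.21). Ddit4, another inhibitor of mTORC1, was at 85.8, 97.8 and 88.0 CPM and differed least, by 0.19 between the scaffolds (0.15 to 0.23).

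Amino acid transporters held the gene with the largest scaffold difference of the list. Slc7a3, a carrier of arginine, lysine and ornithine (ENSMUSG00000031297, chromosome X from 101079210 to 101086020, minus strand), was at 7.98 CPM in IKVAV PA, 17.2 in IKVAV PA + PEDOT-S and 9.34 in PDL control, from 995, 1348 and 744 counts. The PEDOT-S library stood apart from 2 libraries that lay close together. It was 2.16-fold above IKVAV PA (log2 1.11, 0.99 to 1.23) and 1.84-fold above PDL (0.88, 0.75 to 1.01), both called higher, while IKVAV PA was at -0.23 against PDL (-0.36 to -0.09).

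Slc7a1, the widely expressed carrier of the same cationic amino acids, was at 130.1, 173 and 139 CPM, a ratio of 0.41 between the scaffolds (0.38 to 0.45). The large neutral amino acid exchanger is a dimer, and both of its subunits were highest in the PEDOT-S library. Slc7a5, its light chain, was at 194, 253 and 196 CPM (0.39, 0.36 to 0.41), and Slc3a2, the shared heavy chain, was at 128, 155 and 138 CPM (0.28, 0.24 to 0.31). Slc7a11, which pairs with the same heavy chain to import cystine, was at 91.4, 96.9 and 79.1 CPM and was ordered differently, with PDL control lowest. It lay at 0.21 in IKVAV PA against PDL (0.16 to 0.25) and at 0.08 between the scaffolds (0.04 to 0.13). Its promoter window holds 2 C/EBP-ATF elements, while that of Slc7a1 holds none.

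**Figure D3:**
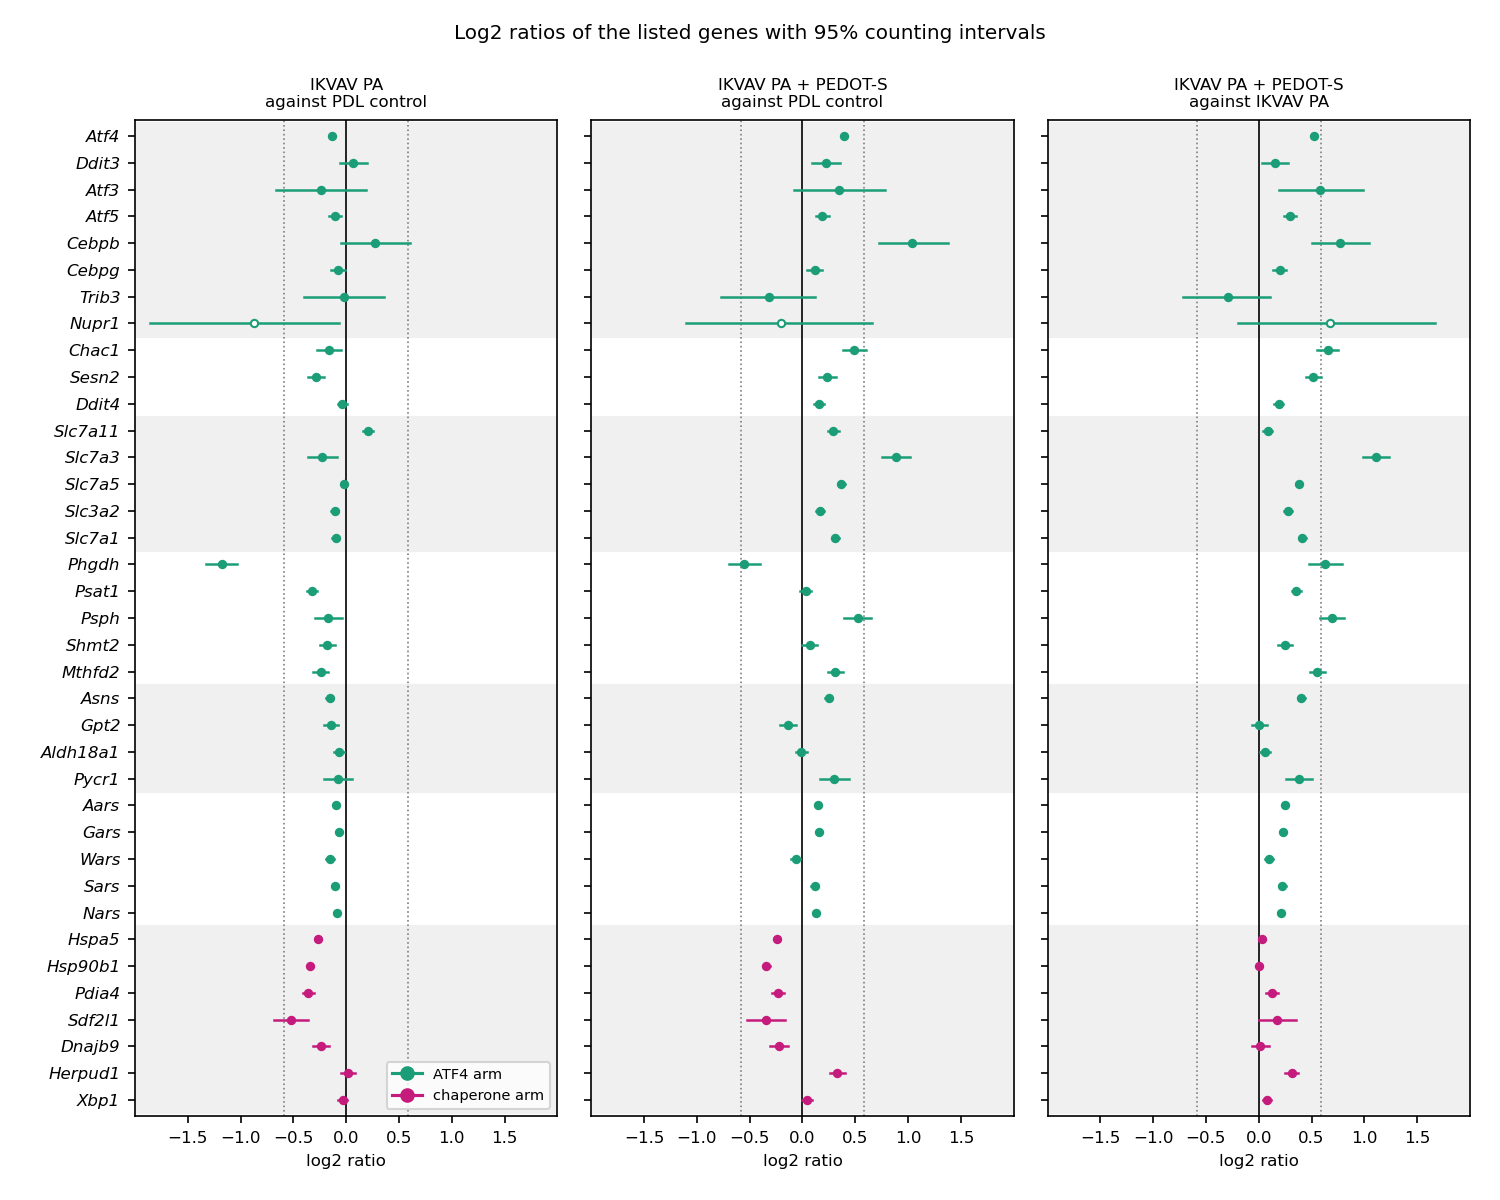
Log2 ratios (points) with 95% counting intervals (lines) of the 37 genes in the 3 comparisons, green for the ATF4 arm and magenta for the chaperone arm, with dotted lines at 1.5-fold and an open symbol for Nupr1, which did not pass the filter. Only the intervals of Phgdh in the left panel, Cebpb and Slc7a3 in the middle and Slc7a3 on the right lie wholly beyond a dotted line.

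Serine and one-carbon enzymes held the gene with the largest difference from the control. Phgdh, the first enzyme of serine synthesis (ENSMUSG00000053398, chromosome 3 from 98313170 to 98339990, minus strand), was at 5.33 CPM in IKVAV PA, 8.25 in IKVAV PA + PEDOT-S and 12.1 in PDL control, from 664, 646 and 963 counts. The control was the highest, and IKVAV PA was 2.27-fold lower than it (log2 -1.18, -1.33 to -1.04), which was called lower. The PEDOT-S library was at -0.55 against PDL (-0.70 to -0.41) and at 0.63 against IKVAV PA (0.47 to 0.79), and neither was called.

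The next 2 steps of serine synthesis did not have the order of Phgdh. Psat1, the aminotransferase, was at 66.7, 85.4 and 83.6 CPM, so IKVAV PA alone was low (-0.33 against PDL, -0.37 to -0.28) and the PEDOT-S library was level with PDL (0.03, -0.02 to 0.08). Psph, the phosphatase, was at 9.88, 16.0 and 11.1 CPM, with the PEDOT-S library highest at 1.62-fold IKVAV PA (log2 0.69, 0.58 to 0.81), just short of the rule. Of the exonic bases of Psph, 10.4% are shared with another gene. Of the mitochondrial folate enzymes, Mthfd2 was at 29.2, 42.8 and 34.5 CPM (0.55 between the scaffolds, 0.49 to 0.62) and Shmt2 at 33.5, 39.8 and 37.9 CPM (0.25, 0.18 to 0.31). All 5 genes of this group were lowest in IKVAV PA.

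Phgdh is abundant in astrocytes and radial glia of the cortex, and markers of those cells were also lower in the scaffold libraries. The 14 astrocyte markers, led by Gfap, Aqp4 and Aldh1l1, summed to 361, 377 and 455 CPM, and of the 13 that passed 8 were called lower and 0 higher in IKVAV PA against PDL, with a median of -0.73. Against PDL the PEDOT-S library had 4 lower and 1 higher (median -0.37), and between the scaffolds 2 were higher and 0 lower (0.16). Of all genes, 3.42% were called lower and 0.54% higher in IKVAV PA against PDL. In the PEDOT-S library against PDL these shares were 3.76% and 0.447%, and between the scaffolds 2.02% and 0.331%. The 9 radial glia and progenitor markers summed to 206, 237 and 437 CPM, with 3 of 7 lower in each scaffold against PDL. The 10 markers of dividing cells summed to 86.5, 86.6 and 185 CPM, with 8 and 7 lower. No marker was at 0 in any library, and the part of these cells in the level of Phgdh was not tested. In bulk samples fewer cells of a type and less RNA per cell cannot be told apart.

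The difference between the arms was also there with the serine and one-carbon enzymes left out. The other 24 ATF4-arm genes that passed had medians of -0.10 for IKVAV PA and 0.21 for the PEDOT-S library against PDL, and 0.26 between the scaffolds. Markers of other cells also differed. The 10 oligodendrocyte lineage markers summed to 69.1, 96.6 and 100.1 CPM. Of them 2 were called higher and 4 lower in IKVAV PA against PDL, 5 higher and 4 lower in the PEDOT-S library against PDL, and 4 higher and 2 lower between the scaffolds. In the same order of comparisons, 0.54%, 0.447% and 0.331% of all genes were called higher. Those called lower were 3.42%, 3.76% and 2.02%. The 8 meningeal fibroblast markers summed to 165, 104 and 262 CPM. Of the 7 that passed, 4 were lower in IKVAV PA and 7 in the PEDOT-S library against PDL (medians -1.02 and -1.55), and 2 were lower between the scaffolds (-0.68). Endothelial markers summed to 4.03, 3.35 and 6.40 CPM and microglial markers to 2.704, 2.62 and 2.25 CPM, with 3 of 6 and 1 of 7 passing the filter. No neuron marker was called between any 2 libraries, with medians of 0.01, -0.04 and -0.04. The part of cell makeup in the ATF4 arm was not tested.

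Enzymes that make asparagine, alanine and proline split between genes that differed and genes that did not. Asns, asparagine synthetase and a defining ATF4 target, was at 138, 182 and 154 CPM, highest in the PEDOT-S library, with a ratio of 0.40 between the scaffolds (0.37 to 0.44) and of 0.25 against PDL (0.21 to 0.28). Pycr1, the last step of proline synthesis, was at 9.86, 12.8 and 10.4 CPM (0.38, 0.26 to 0.50). Aldh18a1, the first step of that path, was at 70.5, 73.3 and 73.9 CPM and nearly level between the scaffolds (0.06, 0.01 to 0.10). Gpt2, mitochondrial alanine aminotransferase, was at 33.3, 33.5 and 36.9 CPM, with both scaffolds below PDL and an interval between them that includes no difference (0.01, -0.07 to 0.08). Of these 4, the promoter windows of Asns and Pycr1 hold the C/EBP-ATF element and those of Aldh18a1 and Gpt2 do not. Over the matched ATF4-arm genes that passed the filter, ratios between the scaffolds overlapped with and without the element. They ran from -0.29 (Trib3) to 0.65 (Chac1) with it and from 0.01 (Gpt2) to 0.77 (Cebpb) without it. A link between element and ratio was not tested.

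The 5 listed aminoacyl-tRNA synthetases, which charge tRNAs with amino acids, differed little and with narrow intervals. Gars was at 273, 319.7 and 286 CPM, a ratio of 0.23 between the scaffolds (0.20 to 0.25). Aars was at 300.1, 356 and 321 CPM (0.25), Sars at 173, 202 and 186 CPM (0.22) and Nars at 239.7, 278 and 255 CPM (0.21). Of the exonic bases of Aars, 15.1% are shared with another gene. Wars, for tryptophan, was at 108, 116 and 121.04 CPM and was the exception, with 0.09 between the scaffolds (0.06 to 0.13) and -0.06 against PDL (-0.11 to -0.02). All 5 were lowest in IKVAV PA, and 4 were highest in the PEDOT-S library.

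The other 15 cytosolic synthetases gave a wider spread of ratios. Their median was 0.17 between the scaffolds and 0.15 against PDL, and none was called at 1.5-fold in any comparison. Tars was highest in ratio at 0.29 (0.24 to 0.34), from 53.8, 65.9 and 57.6 CPM. Vars was lowest at -0.11 (-0.15 to -0.07), from 99.4, 92.2 and 93.1 CPM. Intervals lay above no difference for 11 of the 15 and below for 1, Vars, between the scaffolds. Of all genes, 31.4% lay above and 28.5% below in that comparison. Tars and Vars were picked for their place at the ends of the range.

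**Figure D4:**
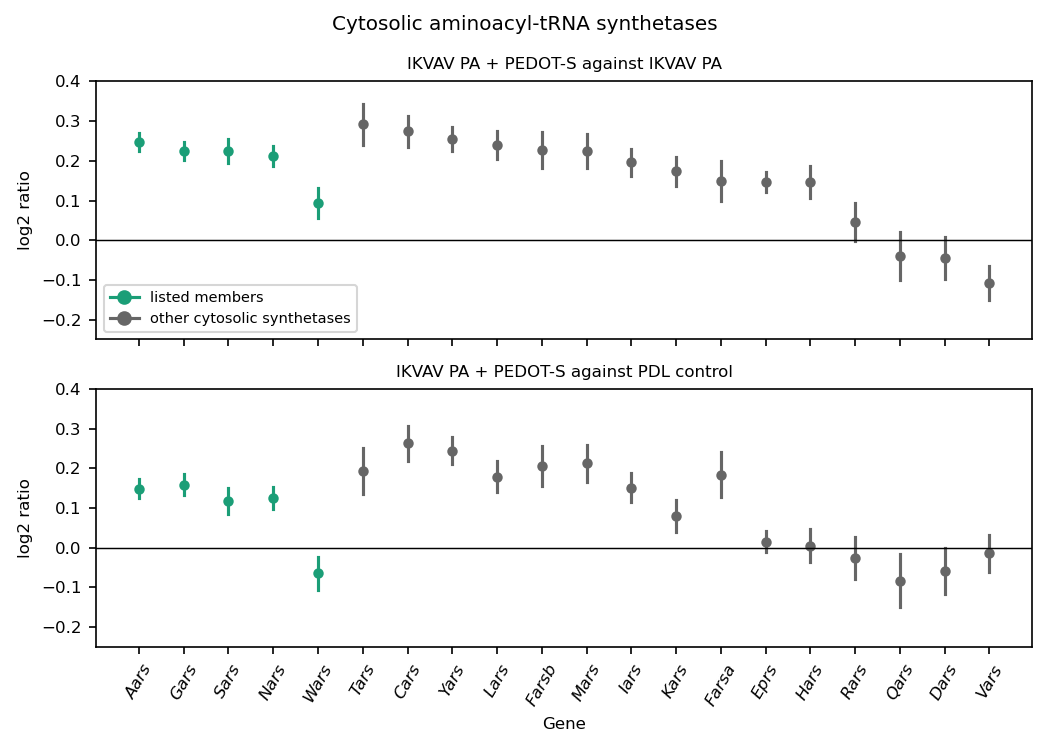
Log2 ratios with 95% counting intervals of 20 cytosolic aminoacyl-tRNA synthetase genes for the PEDOT-S library against IKVAV PA (top) and against PDL control (bottom), with the 5 listed genes in green and 15 others in grey. In the upper panel ratios run from 0.29 for Tars to -0.11 for Vars, and Wars is the lowest of the green points at 0.09.

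In the chaperone arm the folding factors had intervals below no difference in both scaffolds against PDL. Between the scaffolds the intervals of Hsp90b1 and Dnajb9 included no difference, while those of Hspa5, Pdia4 and Sdf2l1 lay above it, for Hspa5 at a ratio of only 0.03. Hspa5, which encodes BiP, the main chaperone of the endoplasmic reticulum, was at 325, 332 and 392 CPM, or 76.8, 78.6 and 92.7 CPM per kilobase. It lay at -0.27 in IKVAV PA (-0.29 to -0.25) and at -0.24 in the PEDOT-S library (-0.26 to -0.21) against PDL, and at 0.03 between them (0.01 to 0.06). Hsp90b1, the chaperone GRP94, was at 211, 211 and 268 CPM, which is -0.34 against PDL in each scaffold and 0.00 between them (-0.03 to 0.03), with 15.7% of its exonic bases shared. Both hold an endoplasmic reticulum stress element in the promoter window.

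Pdia4, a disulfide isomerase, was at 48.5, 52.97 and 62.2 CPM, a ratio of 0.13 between the scaffolds (0.07 to 0.18). Dnajb9, a BiP cochaperone, was at 26.3, 26.6 and 31.1 CPM (0.02, -0.06 to 0.10). Sdf2l1, a further partner of BiP, was at 5.22, 5.90 and 7.51 CPM and had the largest difference of the arm, -0.52 in IKVAV PA against PDL (-0.69 to -0.36), with 0.18 between the scaffolds and an interval just above no difference. PDL control was thus highest in all 5 of these folding genes. None was called at 1.5-fold, and their ratios against PDL ran from -0.52 to -0.22.

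Herpud1 and Xbp1 did not share that order. Herpud1, which serves degradation at the endoplasmic reticulum, was at 35.6, 44.2 and 35.2 CPM, so the PEDOT-S library alone was high, by 0.31 over IKVAV PA (0.25 to 0.37) and 0.33 over PDL (0.26 to 0.40). IKVAV PA against PDL gave an interval that includes no difference (0.02, -0.05 to 0.09), and Herpud1 was the 1 of 7 chaperone-arm genes in which IKVAV PA was not the lowest. Xbp1, the factor activated by IRE1 through splicing, was at 93.98, 99.3 and 96.3 CPM and nearly level, with ratios of -0.03, 0.04 and 0.08. Counts per gene do not show its spliced form.

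Regulators of the response were read from 2 lists. Of 6 eIF2alpha kinase and phosphatase genes, 1 was called lower in IKVAV PA against PDL, where 3.42% of all genes were, and none in the other comparisons. Eif2ak2, which encodes the RNA-activated kinase PKR, was at 0.842, 0.958 and 1.71 CPM, 2.03-fold lower in IKVAV PA than in PDL (log2 interval -1.40 to -0.64). It rests on 75 to 136 counts and passed the filter through PDL control alone, where it is high, which favours a lower call. Between the scaffolds the group's median was 0.15, with 3 intervals above no difference and 2 below, where 31.4% and 28.5% of all genes were. Eif2ak4 and Eif2ak3 are added because their kinases, GCN2 and PERK, are named above. Eif2ak4 was at 29.4, 25.6 and 27.4 CPM, lower in the PEDOT-S library than in IKVAV PA (-0.20, -0.28 to -0.12). Eif2ak3 was at 28.2, 30.7 and 28.4 CPM (0.12, 0.05 to 0.20). Ppp1r15a, the stress-induced phosphatase subunit GADD34, named after its values were seen, was at 22.3, 29.3 and 26.4 CPM. The PEDOT-S library was highest for Ppp1r15a (0.39 between the scaffolds, 0.31 to 0.47) and IKVAV PA lowest (-0.25 against PDL). Of the 6, the most abundant was Ppp1r15b, the constitutive phosphatase subunit, which was at 94.1, 109 and 101 CPM. It shares 11.4% of its exonic bases with another gene. Of 8 sensors and proteases of the unfolded protein response, Creb3l2 alone was called, in both comparisons with PDL, where 3.42% and 3.76% of all genes were lower. That membrane-bound factor was at 3.14, 2.696 and 7.76 CPM, lower than PDL in both scaffolds (-1.30, -1.49 to -1.12, and -1.52, -1.76 to -1.30), and the group's median between the scaffolds was -0.02. Atf6b, the most abundant, was at 99.7, 106 and 104 CPM.

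Other ATF4 target genes outside the list had smaller medians, a difference that was not tested. Of 20, 17 passed the filter, and their median was 0.17 between the scaffolds and 0.13 for the PEDOT-S library against PDL, against 0.29 and 0.19 for the ATF4 arm. Slc1a5, a glutamine carrier, was at 5.34, 8.87 and 4.47 CPM and was called higher in the PEDOT-S library than in PDL (0.98, 0.80 to 1.18). Eif4ebp1, a translation repressor, was at 5.77, 9.80 and 7.33 CPM and was called higher between the scaffolds (0.76, 0.62 to 0.91). Cth, an enzyme of cysteine synthesis, went the other way at 0.690, 0.600 and 1.47 CPM, lower than PDL in both scaffolds (-1.07, -1.51 to -0.68, and -1.26, -1.81 to -0.79). It rests on 47 to 117 counts and passed the filter through PDL control alone, where it is high, which favours a lower call. Against PDL 1 of the 17 was called lower in each scaffold, where 3.42% and 3.76% of all genes were. In the PEDOT-S library 1 was called higher against PDL and 1 against IKVAV PA, where 0.447% and 0.331% of all genes were. Between the scaffolds 13 of the 17 intervals lay above no difference and 3 below, with 31.4% and 28.5% of all genes above and below.

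Lists next to each role group were nearer to 0 between the scaffolds. The 10 other serine, glycine and folate enzymes had a median of 0.06, and Gldc, the glycine cleavage enzyme, was at 3.40, 4.61 and 7.96 CPM, called lower than PDL in both scaffolds (-1.22 and -0.78). Against PDL 1 of these 10 was called lower in IKVAV PA and 2 in the PEDOT-S library, where 3.42% and 3.76% of all genes were. The 10 other amino acid transporters that passed had a median of 0.03, and Slc38a3, a glutamine carrier, was at 0.891, 1.19 and 2.44 CPM, lower than PDL in both scaffolds (-1.43 and -1.02). It was the 1 of these 10 called in each of those comparisons, beside the same shares of all genes. The 19 other chaperone and degradation genes of the endoplasmic reticulum that passed had medians of -0.11 and -0.06 against PDL and 0.04 between the scaffolds, with none called. Calr, the most abundant of them, was at 448, 438 and 511 CPM, again highest in PDL control.

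Lists of other stress responses were set beside these. Medians for the 10 NRF2 antioxidant genes that passed were -0.12 for IKVAV PA and -0.05 for the PEDOT-S library against PDL and 0.08 between the scaffolds, with none called. For the 11 heat shock genes that passed they were, in the same order, -0.15, -0.08 and 0.10. Of these genes, Bag3 (0.465, 0.460 and 1.54 CPM) and Cryab (2.59, 2.03 and 5.13 CPM) were lower than PDL in both scaffolds. Bag3 passed the filter through PDL control alone, where it is high, which favours a lower call. For the 12 p53 target genes the medians were -0.03, 0.19 and 0.23, near those of the ATF4 arm. Among them Btg2 (6.13, 8.39 and 11.7 CPM) was lower in IKVAV PA than in PDL. Against PDL, 2 of the 11 heat shock genes were called lower in each scaffold and 1 of the 12 p53 targets in IKVAV PA. Over all genes compared, 3.42% were called lower in IKVAV PA and 3.76% in the PEDOT-S library against PDL. No gene is shared between the p53 list and the 37.

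**Figure D5:**
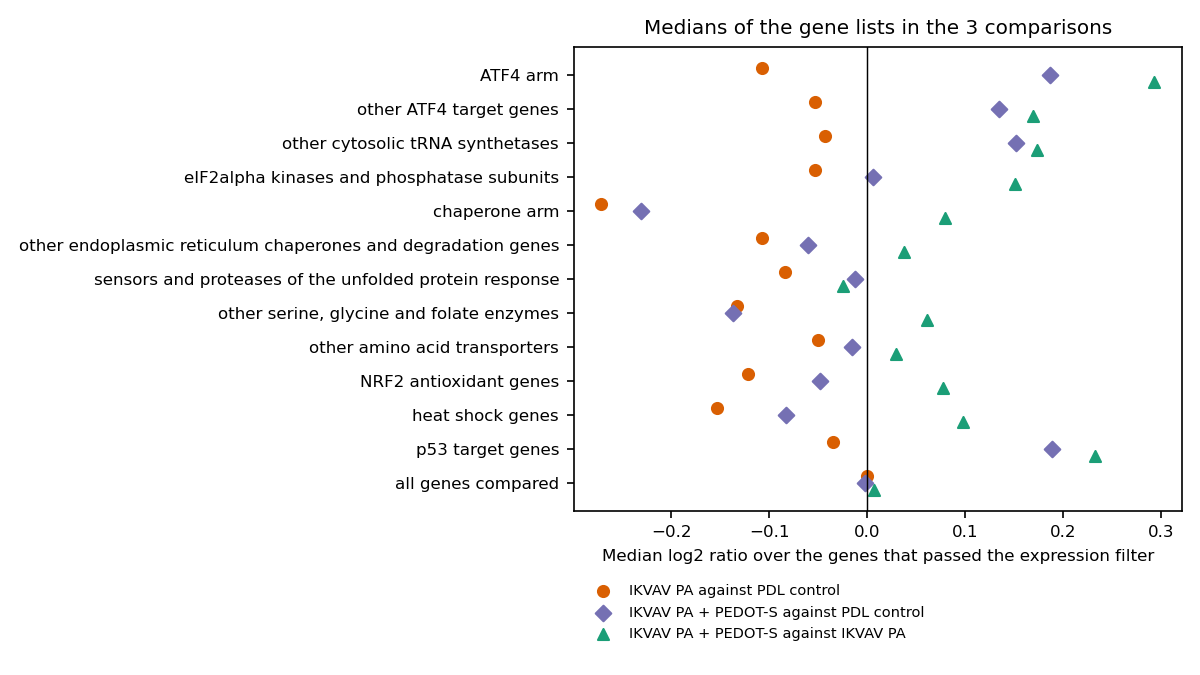
Median log2 ratio over the genes that passed the filter in the 2 arms, the neighbouring pathway lists, other stress lists and all genes compared, with 1 symbol for each of the 3 comparisons. Between the scaffolds (triangles) the ATF4 arm has the highest median, 0.29, followed by p53 targets at 0.23, with the chaperone arm at 0.08 and all genes at 0.01.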

How the data were processed

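Gene counts of 3 libraries were analysed, 1 for each of 3 groups taken from the sample titles. The deposited values are whole-number counts per gene, not normalised. Per the labels' protocols total RNA was used with a TruSeq Total RNA kit, while the molecule field reads polyA RNA. Per the submitters' processing notes reads were handled with STAR 2.7.5, HTSeq 2.0.2, cutadapt 4.2 and DESeq2 1.14.1 on build mm10. Neither the annotation release nor the strand setting is given in the sources used here.

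GENCODE M21 (GRCm38) named 54165 of 54232 identifiers, and the 67 without a name took up to 0.0126% of a library's counts. Genes with at least 1 CPM in at least 1 library were kept (13884), and libraries were scaled by TMM factors (edgeR 4.0.16, R 4.3.3). Ratios of scaled counts have exact 95% Clopper-Pearson counting intervals (scipy 1.17.1), and log2 ratios use a prior count of 2. Members with over 10% of exonic bases shared with another gene are marked by that share, and their levels are uncertain. Without molecular identifiers reads are not independent molecules, so intervals cover counting error only. The calculation was tested on simulated data. Libraries of 78993105 to 124425958 counts left intervals of a few percent for abundant members and wide ones near 1 CPM.

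The members, gene lists and comparisons were chosen with earlier results of these data known. All 37 members are described. Of other lists, counts cover the whole list, and genes are named where they passed the 1.5-fold rule (up to 4) or were highest in level. Of cell markers at most the first 3 are named. Where the text goes beyond this rule it says so. A gene that the rule names is not reported here. Alternatives were total counts, size factors from DESeq2 1.42.0, other filters and bounds, thinning, protein-coding genes, centring on exonic length, leaving out shared exons, another prior count and means.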

Additional observations from a re-analysis of the deposited data

How the results depend on the processing

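No paired analysis was possible because each group has 1 library, and no library could be left out. No median of an arm changed sign under any of the 10 alternatives that apply to medians. Between the scaffolds the ATF4-arm median was 0.29 and its mean 0.35, and for IKVAV PA + PEDOT-S against PDL the chaperone-arm median was -0.23 and its mean -0.14. The number of members called depends on the bound. Between the scaffolds 1 was called higher, against 0 at 2-fold, 11 at a ratio of 5 to 4 and 32 by the weaker rule, which was chosen after seeing the data. For IKVAV PA + PEDOT-S against PDL 2 were higher, against 0 at 2-fold, 6 at that looser bound, 22 by the weaker rule, and 1 both at a filter of 5 CPM and without genes that share exons, which leave out Cebpb. In that comparison 0 were lower, against 1 at that looser bound and 8 by the weaker rule. For IKVAV PA against PDL 0 were higher, against 1 by the weaker rule, and 1 was lower, against 2 at that looser bound and 26 by the weaker rule. At that looser bound 214, 257 and 293 of all 13884 genes were higher and 671, 919 and 799 lower, with the comparisons in the order just given. At 2-fold 7, 13 and 9 were higher and 75, 258 and 219 lower. By the weaker rule 31.4%, 28.6% and 28% lay above and 28.5%, 28.5% and 28.9% below. Over all genes, filters of 1 count in any library and of 5 CPM gave 230 and 23 higher and 1123 and 96 lower between the scaffolds, where 46 and 280 were called. Ratios near 0 changed sign for Hsp90b1, Gpt2 and Dnajb9 between the scaffolds under other scalings, and for Trib3 in IKVAV PA against PDL after thinning (0.11 against -0.02). Depth limits Atf3, Trib3, Cebpb and Nupr1.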
